A study of Danio rerio with 6 samples.

Results

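The zebrafish gene *dhrs13l1* was measured as 1 Ensembl transcript, ENSDART00000021864, which is 1 of 54869 transcripts in the count table. It is the only transcript with this gene name among the 424 named in the authors' deposited lists of changed transcripts. The count table names no genes, so further transcripts of *dhrs13l1* could be present there without a name. Reads shared with any such transcript would be ambiguous and enter no count. ENSDART00000021864 was chosen by its fall in flt1ka601 mutants, a comparison of these same 6 samples. Its difference between genotypes is therefore described here and was not tested. RNA of whole larvae at 4 days post fertilization (dpf) was sequenced from 3 samples homozygous for flt1ka601, a frameshift allele made with CRISPR/Cas in an early exon of the Vegf receptor gene *flt1*, and from 3 wild-type (WT) samples. Both genotypes carried the endothelial reporter Tg(kdrl:eGFP)s843, in which the *kdrl* promoter drives eGFP. WT is labelled as strain AB, whereas no strain is given for the mutants. The mutants descend from injected embryos that were outcrossed to reporter lines, so an effect of the *flt1* allele and a difference in strain background cannot be told apart by the groups. How many larvae were pooled per sample is not given in the sources used here.

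Short-chain dehydrogenases/reductases are enzymes that use NAD(H) or NADP(H) to interconvert alcohols with aldehydes or ketones, and the family acts on steroids, retinoids, prostaglandins and many xenobiotics. *dhrs13l1* is named as member 13 like 1 of this family in the authors' deposited table. Its substrate is not stated there. RefSeq lists 5 other zebrafish genes whose symbols begin with dhrs13, and 0 of these lie on the chromosome of *dhrs13l1*.

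Transcript *dhrs13l1* was nearly lost in flt1ka601 larvae. It had 8, 30 and 16 reads in the mutants, against 445, 347 and 137 reads in WT. Of all its reads, 94.5% came from WT samples. Scaled for library size and composition (CPM, read counts relative to the TMM-scaled library total), it reached 0.573, 2.70 and 1.39 CPM in flt1ka601 replicates 1, 2 and 3, against 34.2, 30.4 and 13.0 CPM in WT replicates 1, 2 and 3. Each mutant was below each WT sample, and the highest mutant remained 4.80-fold under the lowest WT sample. In 15.8% of the 21029 transcripts tested every mutant was also below every WT sample, and in 6.04% with scaling by total counts.

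The mean was 1.56 ± 1.07 CPM in flt1ka601 and 25.9 ± 11.3 CPM in WT (SD, n = 3 each), which is 16.6-fold lower in mutants. The fitted log2 fold change of mutant over WT was -4.12 (standard error 0.45, 95% confidence interval -5.11 to -3.12). Only 16 of the 21029 tested transcripts had a lower log2 fold change, and the median over all of them was -0.0051. For background, 4.31% of tested transcripts were called lower and 5.44% higher in mutants with 0.05 as the limit on the Benjamini-Hochberg adjusted p of edgeR's quasi-likelihood test. Of these calls 55.8% were higher, against 83.1% with scaling by total counts. As the gene was picked for this contrast, the confidence interval is no test and may not cover at its stated rate. Nothing further is read from the gene's place in the contrast. RNA from whole larvae cannot separate fewer cells with the transcript from less transcript per cell.

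**Figure D1:**
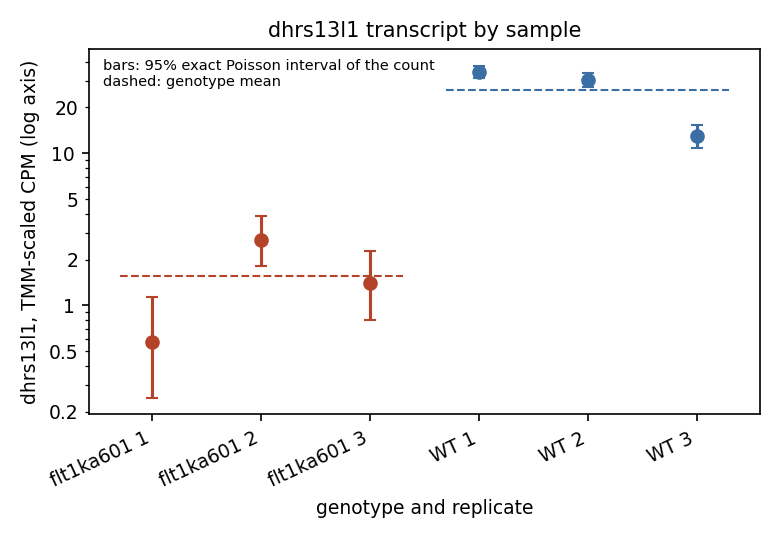
*dhrs13l1* level in TMM-scaled CPM on a log axis for each flt1ka601 and WT sample, with 95% exact Poisson intervals as bars and the genotype means as dashed lines. The mutants sit between 0.573 and 2.70 CPM and the WT samples between 13.0 and 34.2 CPM, and WT replicate 3 is the lowest of the WT samples.

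The level of *dhrs13l1* also varied within each genotype. In mutants the highest sample was 4.72 times the lowest, and in WT 2.64 times. The count of 8 reads in flt1ka601 replicate 1 has a 95% exact Poisson interval of 0.247 to 1.13 CPM, which does not meet that of replicate 2 (1.82 to 3.85 CPM). In WT, replicate 3 had an interval of 10.9 to 15.3 CPM, below the 27.3 to 33.8 CPM of replicate 2. These intervals cover counting error only. The spread between samples of 1 genotype was therefore wider than counting error in both genotypes.

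Compared with other transcripts, this spread was wide. The standard deviation of log2 CPM between samples of 1 genotype was 0.88 for *dhrs13l1*, against a median of 0.15 for the 6629 tested transcripts with a mean count within 2-fold of its own. It exceeded 99.7% of them. The same held in each genotype, in a comparison added after the data were seen, with transcripts of a like count in that genotype as the background. The standard deviation was 0.98 in mutants against a median of 0.27 over 5151 transcripts, and 0.76 in WT against a median of 0.13 over 6044 transcripts. It exceeded 99.7% of these in mutants and 99.4% in WT. The spread itself uses no difference between genotypes. The first background, however, was matched on the mean over all samples, which is above the mutant counts of *dhrs13l1*. Its median in mutants was 0.12, under the 0.27 of the background matched in mutants. The first comparison therefore overstates the excess in mutants.

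**Figure D2:**
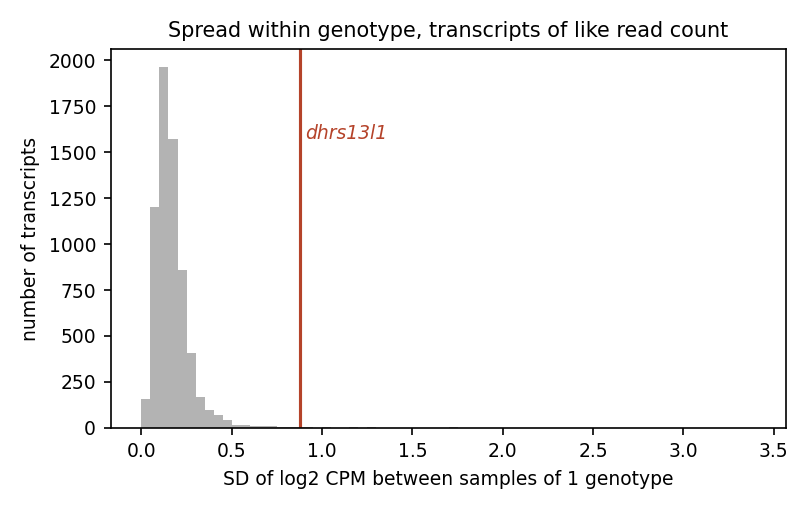
Number of transcripts (vertical axis) by their standard deviation of log2 CPM between samples of 1 genotype (horizontal axis), for the 6629 tested transcripts with a mean count within 2-fold of that of *dhrs13l1*. The vertical line marks *dhrs13l1* at 0.88, far to the right of the median of 0.15.

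WT replicate 3 and flt1ka601 replicate 1 held the low ends. WT replicate 3 had 0.401 times the mean *dhrs13l1* CPM of the other WT samples. The same library also lay apart from both other WT samples on the second principal component of log2 CPM, which held 26.7% of the variance. The first, with 51.6%, separated the genotypes. WT replicate 1, the highest in *dhrs13l1*, differed in another way. Its 5 most abundant transcripts held 36.9% of counted reads, against 27.0% to 28.8% in the other samples. The log2 fold change of *dhrs13l1* moved most without flt1ka601 replicate 2, the highest mutant, to -4.76. It was -3.67 without flt1ka601 replicate 1 and -4.44 without WT replicate 3.

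Genes next to *dhrs13l1* on its chromosome were examined to see whether its neighbours differed between the genotypes too. The count table names no genes. Names come only from the authors' deposited lists of changed transcripts, so a neighbour without a change could not appear, and the calls below are not independent of that choice. Gene order was taken from RefSeq (assembly GRCz12tu), to which 242 of the 424 named transcripts were matched. *flt1* itself lies on another chromosome than *dhrs13l1* there. No *flt1* transcript carries its name in the lists, so its own level is not given.

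Within 20 genes on either side of *dhrs13l1*, 3 of 31 other protein-coding genes were named in the lists (9.68%), against 228 of 27039 RefSeq protein-coding genes in all (0.843%). Around *flt1*, 0 of 33 genes within 20 genes and 0 of 141 within 100 genes were named. The 3 neighbours are *casp3b*, *gstp2* and *slc25a51b*, of which *casp3b* and *gstp2* had higher means in mutants and *slc25a51b* a lower one, as *dhrs13l1* had.

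The nearest of them, *casp3b*, is the adjacent gene in this order and encodes an executioner caspase of apoptosis. Its transcript ENSDART00000077348 had 141, 64 and 84 reads in flt1ka601, against 32, 41 and 43 in WT. It rose, with 7.72 ± 2.19 CPM in mutants and 3.37 ± 0.826 CPM in WT (log2 fold change 1.22, standard error 0.25, adjusted p = 0.013 from edgeR). Its second transcript, ENSDART00000149874, had 59, 38 and 37 reads in flt1ka601, against 12, 9 and 23 in WT. Its fitted log2 fold change was 1.52 (standard error 0.33, adjusted p = 0.019 from edgeR). For both transcripts every mutant was above every WT sample, the reverse of *dhrs13l1*. That order held for 16.8% of all tested transcripts, and for 25.4% with scaling by total counts. Reads on any exon that both transcripts share are ambiguous and enter no count, so these are not levels of the whole gene. ENSDART00000149874 reached the filter's level of expression in 1 WT sample only, so it was tested through the mutants, where it is high, and its call supports nothing. That call was lost in each of the fits that left out a sample other than WT replicate 3, and that of ENSDART00000077348 without flt1ka601 replicate 1 (adjusted p = 0.06). The spans of *casp3b* and *dhrs13l1* overlap in RefSeq's annotation. Whether reads were counted by strand is not given in the sources used here. Without strand, reads on overlapping exons of both genes would be ambiguous and enter no count for either.

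The second neighbour, *gstp2* (RefSeq's *gstp1.1*), encodes a pi-class glutathione transferase, an enzyme of detoxification, and lies 10 genes away. It had 1312, 1930 and 2243 reads in flt1ka601, against 259, 226 and 1264 in WT. WT replicates 1 and 2 were at 19.9 and 19.8 CPM and WT replicate 3 at 120 CPM, inside the mutants' range of 93.9 to 195 CPM. WT replicate 3 was thus nearest to the mutants for both *gstp2* and *dhrs13l1*, at the opposite ends of their scales. It was the nearest WT sample for both *casp3b* transcripts too, but the farthest for *slc25a51b*. Among the named transcripts farther away both cases occurred. With all samples the log2 fold change of *gstp2* was 1.55 (standard error 0.58) and the test was not passed (adjusted p = 0.12). Without WT replicate 3, the WT sample inside the mutants' range, it was 2.95 (edgeR, adjusted p = 1.5e-05). That call follows from which sample was left out and supports nothing. With any other sample left out *gstp2* was not called (edgeR, adjusted p from 0.14 to 0.28). A close copy, *gstp1.2*, is the adjacent gene in RefSeq, and reads that fit both copies enter no count, so the level of *gstp2* is uncertain.

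The third neighbour, BX088718.1, is *slc25a51b* by its gene identifier. Its human counterpart carries NAD into mitochondria. It had 6, 12 and 17 reads in flt1ka601, against 22, 18 and 29 in WT. The genotypes did not overlap, but only by 1.48 CPM in flt1ka601 replicate 3 against 1.58 CPM in WT replicate 2. Every mutant was below every WT sample in 15.8% of all tested transcripts. The fitted change of -1.03 on the log2 scale (standard error 0.40) did not pass the test (edgeR, adjusted p = 0.13).

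**Figure D3:**
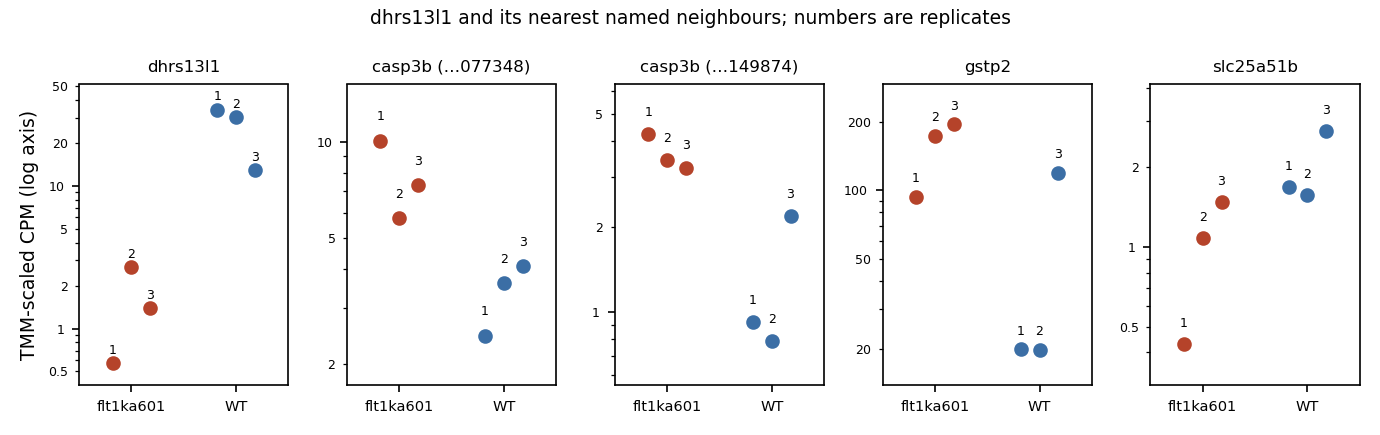
TMM-scaled CPM on log axes for *dhrs13l1*, both *casp3b* transcripts, *gstp2* and *slc25a51b*, with flt1ka601 samples left and WT samples right in each panel and replicate numbers beside the points. WT replicate 3 of *gstp2*, at 120 CPM, lies among the mutants, while the genotypes do not overlap in the other panels.

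A wider stretch was chosen after these values were seen. Within 100 genes on either side of *dhrs13l1*, 12 of 162 other protein-coding genes were named (7.41%), against 1 of 724 on the rest of the chromosome (0.138%). Within 50 and 200 genes the shares were 5.0% and 4.64%. The 12 genes gave 14 transcripts, of which 9 were called higher, 3 lower and 2 not at all (edgeR, adjusted p under 0.05), against 5.44% called higher and 4.31% lower over all tested transcripts. As these members are known only from lists of changed transcripts, nothing is read from the excess. The genotypes did not overlap for 13 of the 14. Over all tested transcripts every mutant was below every WT sample in 15.8% and above in 16.8% (6.04% and 25.4% with scaling by total counts). Of the 12 called transcripts, 4 were under the filter's level in at least 1 sample of the lower genotype. Among these, *tubb4b* and *pcdh2aa3* (2 of the 4) were under it in every such sample. These 4 were tested through the genotype where they are high, so their calls and their lack of overlap support nothing. With each sample left out in turn, 7 to 10 of the 14 were called higher and 1 to 3 lower. All 14 kept their direction in each of these fits.

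Most of these genes belong to the *pcdh2* cluster of protocadherins, neuronal adhesion molecules whose variants are spliced from alternative first exons onto shared exons. It gave 8 genes and 9 transcripts, 6 of them called higher and 3 lower (5.44% and 4.31% of all tested transcripts). Those called higher included *pcdh2aa15* (log2 fold change 1.49) and *pcdh2ab12* (1.27), and those called lower *pcdh2ab5* (-1.49). The lower calls of *pcdh2g1* (-1.29) and *pcdh2ab3* (-1.11) were lost in 5 and 4 of the 6 fits that left out a sample. *pcdh2aa3* (1.58) was under the filter's level in every WT sample, so it was tested through the mutants alone and its call supports nothing. That call was also lost without flt1ka601 replicate 2 (edgeR, adjusted p = 0.057). Reads on the exons that the variants share are ambiguous and enter no count. Without the *pcdh2* genes, 4 of 137 genes were named within 100 genes of *dhrs13l1* (2.92%).

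On the other side of *dhrs13l1*, *tubb4b*, which encodes a beta-tubulin, lies 28 genes away. It had 48, 25 and 25 reads in flt1ka601, against 5, 7 and 1 in WT. The mean was 2.62 ± 0.706 CPM in mutants and 0.364 ± 0.26 CPM in WT (SD, n = 3 each), with no overlap. Every mutant was above every WT sample in 16.8% of all tested transcripts. Every WT sample was under the filter's level, so *tubb4b* entered the test through the mutants alone and its difference is given as values only. Reads shared with other beta-tubulin genes leave its level uncertain.

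The gathering of named genes here can be set beside other chromosomes. In any run of 201 consecutive RefSeq genes, the chromosome of *dhrs13l1* held at most 13 named protein-coding genes, itself included. Over the 24 other chromosomes this number lay between 1 and 11. This is a description of where named genes lie, and gene clusters such as *pcdh2* enter it with several members each. Sequence variants were not analysed here.

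**Figure D4:**
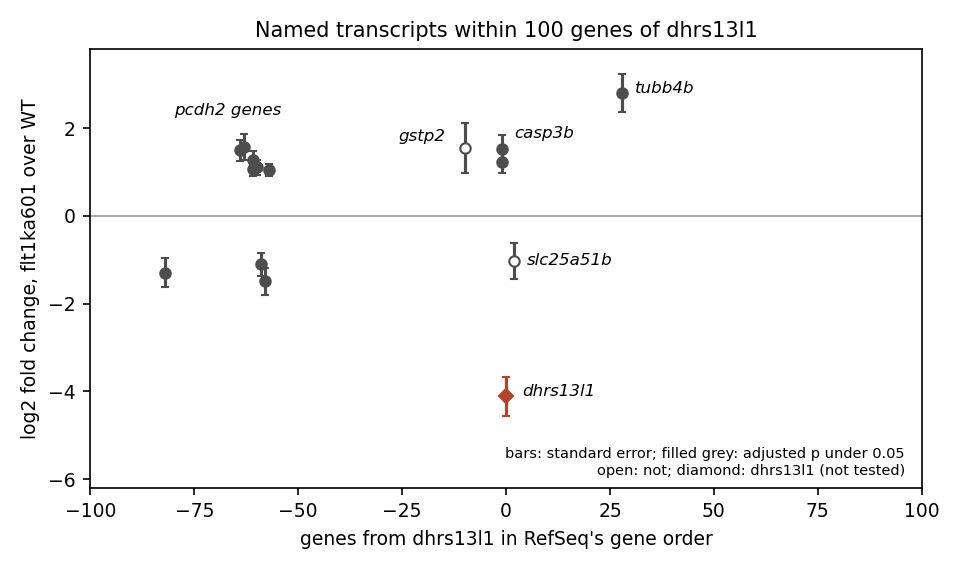
Log2 fold change of flt1ka601 over WT (vertical axis, bars are standard errors) for named transcripts within 100 genes of *dhrs13l1*, placed by gene order (horizontal axis). Filled grey points passed an adjusted p of 0.05, open points did not, and *dhrs13l1* at -4.12 is the lowest, among neighbours of which 9 were called higher and 3 lower. Of these 12 called transcripts, 4 were under the filter's level in at least 1 sample of the lower genotype.

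Transcripts with the profile most like *dhrs13l1* were sought among 14287 others with a mean of at least 50 reads. Likeness was the root mean square difference of log2 CPM profiles, each centred on its mean over the 6 samples. It was 2.13 for the median transcript. The nearest was si:ch1073-340i21.3 at 0.68, with 19, 12 and 18 reads in flt1ka601 and 367, 363 and 181 reads in WT. The next was si:dkey-7c18.24 at 0.73, with 8, 10 and 13 reads in flt1ka601 and 122, 95 and 53 reads in WT. In both, as in *dhrs13l1*, WT replicate 3 was the lowest WT sample. The files give no role for either gene.

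The third was EGFR (2 of 5) at 0.99, named by the deposited table as a copy of the epidermal growth factor receptor gene. It had 33, 24 and 19 reads in flt1ka601 and 179, 184 and 100 reads in WT. The fourth was zgc:92137, the amylase gene *amy2al2* by its gene identifier, at 1.1. Amylase is a starch-digesting enzyme of the exocrine pancreas. It had 58, 156 and 230 reads in flt1ka601 and 698, 611 and 287 reads in WT. As for *dhrs13l1*, flt1ka601 replicate 1 was the lowest mutant and WT replicate 3 the lowest WT sample. Its highest mutant was replicate 3, whereas that of *dhrs13l1* was replicate 2. The fifth was RNaseP_nuc, the RNA subunit of nuclear RNase P, at 1.11, and here WT replicate 3 was the highest sample. The genotype difference that chose *dhrs13l1* carries most of this likeness, and all 5 are in the deposited lists. The choice of these 5 depends on the measure, as 0 of them were among the 5 nearest by Pearson correlation.

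**Figure D5:**
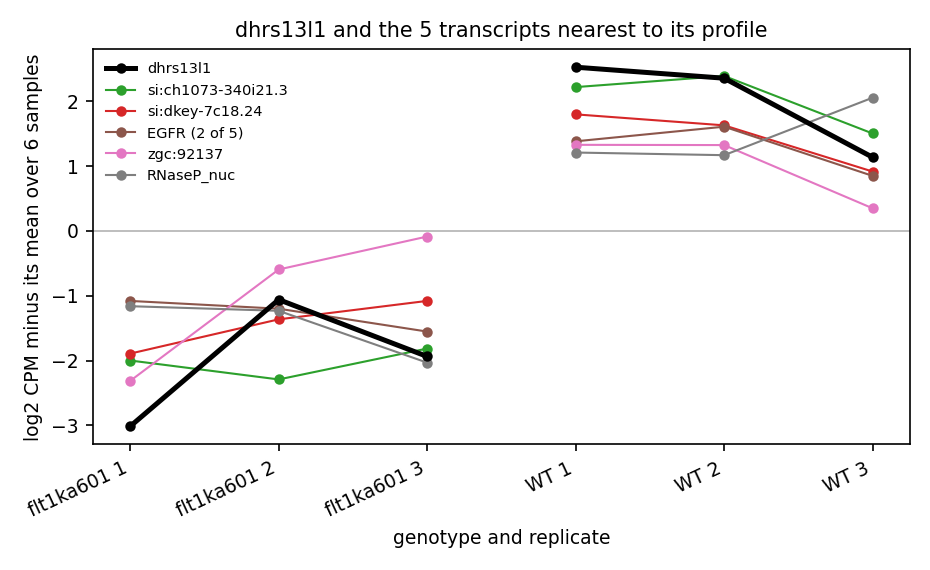
Log2 CPM minus its mean over 6 samples (vertical axis) for *dhrs13l1*, thick black line, and the 5 transcripts nearest to its profile, with flt1ka601 samples left and WT samples right. Each lies lower in mutants, and WT replicate 3 is the lowest WT sample for *dhrs13l1* and for all but RNaseP_nuc.

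After the genotype means were taken out, the ranks of pancreatic enzyme transcripts by likeness to *dhrs13l1* were looked up by name. Of the 14287 transcripts, *cpa4*, a carboxypeptidase, ranked 12, *amy2a*, an amylase, ranked 29 and zgc:92137 ranked 42. However, zgc:92137 had already been picked by its likeness over the same samples, so its rank is not independent of that choice. The transcripts ranked nearer than *cpa4*, and most of those between these ranks, are not named here. The ranks therefore do not show that the nearest profiles are pancreatic. The lipase named below was under the mean of 50 reads and was not ranked. The transcript si:dkey-7c18.24 ranked 55, and si:ch1073-340i21.3 ranked 3523. Amylase copies are alike in sequence, so their split of reads is uncertain.

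Of 18 genes listed as markers of the exocrine pancreas, 5 were named and 3 tested. Of these *cpa4* fell (log2 fold change -1.49, adjusted p = 0.012) and *cel.2*, a lipase, fell (-1.69, adjusted p = 0.046), both from edgeR, against 4.31% called lower over all tested transcripts. Like the other lists, this one could hold only genes that the authors listed as changed. The filter's level was reached by *cel.2* in 2 mutants and 3 WT samples, and it had 6 reads in flt1ka601 replicate 1. *amy2a* had a log2 fold change of -1.62 (adjusted p = 0.054). The named markers summed to 16.0, 48.6 and 53.4 CPM in flt1ka601 replicates 1, 2 and 3, against 146, 121 and 72.8 CPM in WT replicates 1, 2 and 3. Their lowest sample in each genotype was the lowest for *dhrs13l1* as well. The order of flt1ka601 replicates 2 and 3 was the reverse, as *dhrs13l1* was at 2.70 and 1.39 CPM there. Trypsin-like *prss59.2* had 0 reads and *ela3l*, an elastase, 1 read in all samples together. Reads that are ambiguous or not unique enter no count, so these values do not show that either gene was silent. For the same reason the summed CPM is not a measure of pancreatic content. The part of pancreatic content in the level of *dhrs13l1* was not tested.

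Of 9 erythroid markers 5 were named, and these 5 were called higher (5.44% of all tested transcripts were), but they were named only because the authors listed them as changed, and the other 4 could not be counted. They summed to 666 to 1013 CPM in mutants and 262 to 295 CPM in WT. Of 13 photoreceptor markers 2 were named, and *sagb*, a rod arrestin, rose (log2 fold change 1.22, adjusted p = 0.0066 from edgeR). The cone opsin *opn1lw1* had a log2 fold change of -0.92 (adjusted p = 0.066). The liver, intestine and epidermis lists had 0 named members. The part of tissue make-up or stage in the *dhrs13l1* difference was not tested.

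Other genes of the enzyme family and of retinoid metabolism were looked up by name. In the deposited lists, 0 other short-chain dehydrogenases and 0 genes of the retinoid list were named, and 0 of the 5 other dhrs13 genes. Their counts carry no name and were not analysed here, so *dhrs13l1* cannot be set against its relatives.

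The authors' deposited DESeq table gives a mean of 18.3 for *dhrs13l1* in mutants and 305 in WT, in counts divided by size factors. Means recomputed from the count columns differed from these by at most 8.6e-10% in mutants and 7e-09% in WT, so the columns match the genotypes as labelled. The authors' deposited Cuffdiff table does not list the transcript. The paper counts a gene as differentially expressed only when DESeq and Cuffdiff both find it changed. By the deposited lists *dhrs13l1* was found with DESeq only, so it does not meet that rule. Nor do the named neighbours within 100 genes, as each is listed for DESeq or for Cuffdiff but not for both. Library depth was 10655504 to 13358468 counted reads in flt1ka601 and 10792845 to 14936523 in WT.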

How the data were processed

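Whole larvae of both genotypes at 4 dpf were compared, 3 samples each. Per the labels and methods, 3 biological replicates with 2 technical replicates each were sequenced, and the count table holds 1 column per sample. The authors mapped reads with TopHat and Bowtie. The paper names GRCz10 and the submitters' processing notes name Zv9, and no coordinates are given here for that reason. The values deposited by the authors are raw HTSeq counts per Ensembl transcript, without normalization, and reads that are ambiguous or not unique enter no count. Ambiguous reads made up 20.0% to 23.1% of uniquely placed reads. The authors' deposited DESeq table gives a mean signal per genotype (counts divided by size factors), and their deposited Cuffdiff table a mean FPKM per genotype, used for names only. Both also hold fold changes and p-values of the authors' own comparison, which were not used.

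The software was edgeR 4.0.16, run under R 4.3.3. Its filterByExpr set the expression filter (at least 10 reads at the median library size in 3 samples, 15 in total), which left 21029 of 54869. Libraries were scaled by TMM, and genotype alone was fitted with the quasi-likelihood test, and p-values over the whole tested table were adjusted after Benjamini and Hochberg. Standard errors derive from the fold change and the F statistic and are approximate. Log2 CPM used a prior count of 2. The fit was tested on simulated data. DESeq2 1.42.0, other scalings and filters, the replicate number as a block and leaving out each sample were alternatives. P-values set the difference between genotypes against the spread between these samples, and do not separate genotype from strain.

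*dhrs13l1*, the gene lists and the tests were chosen with earlier results of these data known. Transcripts were named by rule: *dhrs13l1*, named family, retinoid and marker genes, named genes within 20 genes of *dhrs13l1* or *flt1*, and the 5 nearest profiles. Neighbours between 20 and 100 genes away were added after values were seen. The ranks of pancreatic enzyme transcripts were also added outside this rule.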

Additional observations from a re-analysis of the deposited data

How the results depend on the processing

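The log2 fold change of *dhrs13l1* stayed between -4.12 and -3.97 under the other scalings, without a filter, with DESeq2's Wald test and with the replicate block (-4.09), and between -4.76 and -3.67 with each sample left out. A filter of at least 10 reads in every sample removed it. With scaling by total counts 1829 transcripts were called higher and 373 lower, the median log2 fold change of all transcripts moved to 0.12, and 6.04% of transcripts had all mutants below all WT samples. Leaving out a sample gave 422 to 1492 called higher and 295 to 1297 called lower. With the replicate block 1270 were called higher and 1082 lower, and *gstp2* passed the test (log2 fold change 1.96, adjusted p = 0.011). Same-numbered samples deviated together only weakly (correlations 0.10, 0.058 and 0.073), although each sample was nearest to its own number. *gstp2* was also called without a filter (adjusted p = 0.0036), but not with the other scalings or with DESeq2's Wald test (adjusted p = 0.33). The call of zgc:92137 was lost with DESeq2 (adjusted p = 0.072). Of 241 alternative fits of the named neighbours and nearest profiles, 195 kept a call, 22 stayed without one, 20 lost it and 3 gained it. DESeq2 gave 1 transcript, *pcdh2aa3*, no adjusted p. By Pearson correlation instead, over all samples or within genotype, 0 of the 5 nearest profiles were shared. Counts of 8 to 30 reads limit the precision of the mutant level.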
